A study of Mus musculus with 28 samples.

Results

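Mouse embryonic stem cells that had spent 96 h without 2iL and were then given 2iL for 24 h were compared with cells left without 2iL for the whole 120 h. Both groups were therefore collected 120 h after the first withdrawal. They were chosen by sample title, and the comparison uses 8 of the 28 libraries, 4 in each group. The study followed E14 cells, an established mouse embryonic stem cell line, through withdrawal of 2iL and through its return. All groups grew in N2B27, a serum-free medium, on gelatin. 2iL is CHIR99021, an inhibitor of the kinase GSK3, with PD0325901, an inhibitor of the kinase MEK, and the cytokine LIF. Group names below give the hours without 2iL: 120 h for continued withdrawal, 96 h + 2iL for the return, 96 h for the cells just before it and 2iL for cells never withdrawn. The titles number the experiments 1 to 4, and every group holds 1 library of each. The labels do not say whether the experiments were separate cultures, so p-values measure a spread between libraries that may be partly technical. For the gene tests that spread was estimated over all 28 libraries, not from the 8 compared alone.

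As background, GSK3 marks beta-catenin for destruction, so that its inhibition acts like a WNT signal through TCF/LEF factors. MEK activates ERK, which in stem cells carries the FGF signal for leaving the naive state and induces its own feedback inhibitors. LIF activates STAT3, and together these inputs keep a network of naive pluripotency factors running, Tfcp2l1, Klf2 and Esrrb among them. Cells released from them in N2B27 pass through a formative, epiblast-like state and then take on mainly neural fates.

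Transcript ends were counted per gene in libraries of 1591157 to 2405164 gene counts in 96 h + 2iL and 1919171 to 2632457 at 120 h. The share of counts on mitochondrially encoded genes was 1.37% ± 0.13 in 96 h + 2iL and 1.37% ± 0.21 at 120 h (SD, n = 4, two-sided exact permutation p = 1). Levels below are CPM, counts scaled to a common library total, after TMM scaling, which corrects for library composition, and libraries are given in the order of experiments 1, 2, 3 and 4. The libraries of experiment 3 stood apart in summed naive or neural levels. Its 96 h + 2iL library had a summed level of 242 CPM over 18 naive pluripotency genes, against 604 to 1170 CPM in the other 3. It also had 1858 CPM over 26 neural progenitor genes, against 277 to 904 CPM. Its 120 h library had the highest summed neural level of that group as well, at 2444 CPM. In whole cultures, fewer cells of a kind and less RNA per cell cannot be told apart.

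Of 11080 genes tested, 413 (3.73%) differed between 96 h + 2iL and 120 h, 194 of them (1.75%) higher and 219 (1.98%) lower in 96 h + 2iL. A gene is called, and said to have risen or fallen, where its Benjamini-Hochberg adjusted p from edgeR's quasi-likelihood test was under 0.05. Fold changes are on the log2 scale with their standard errors, positive where 96 h + 2iL was higher. The median over all genes tested was 0.0062. Tfcp2l1, Klf2 and Irs4 were set as markers of this comparison with earlier results of these data known. The libraries of the groups did not overlap for 339 genes (3.06%) in the higher direction and 408 (3.68%) in the lower, 747 (6.74%) in all, and 251 of the called genes were among them. The counts given for single lists below stand beside these shares of all genes tested. Called genes were 47% higher and 53% lower, and scaling by library totals alone gave 37% and 63%. Leaving out a 96 h + 2iL library gave 243 calls (101 higher, 142 lower) without experiment 1 and 232 (97 higher, 135 lower) without experiment 2. Leaving out the 120 h library of experiment 2 gave 244 calls (119 higher, 125 lower), and without the 96 h + 2iL library of experiment 3 the number higher was 311. With both libraries of experiment 3 left out, 506 genes were called. Without the experiment term 291 were called, and among genes named below En2, Il17rd, Ldha, Lhx5, Nanog, Nkx1-2, Otx2, Sox2, Sox21, Wnt8b and Zic2 then lost their call.

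The same fit places both groups among their neighbours. These contrasts share libraries with the main one, so they serve only to locate the levels. Against 96 h, the cells 24 h earlier, 1339 genes (12.1%) differed in 96 h + 2iL, 616 higher (5.56%) and 723 lower (6.53%). Continued withdrawal over the same 24 h, 120 h against 96 h, changed 580 genes (5.23%), 295 higher (2.66%) and 285 lower (2.57%). That last number fell to between 198 and 224 when any of 5 single libraries was left out (96 h of experiments 1, 2 or 4, or 120 h of experiments 3 or 4). Against cells kept in 2iL, 4798 genes (43.3%) still differed in 96 h + 2iL, 2483 higher (22.4%) and 2315 lower (20.9%).

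Naive pluripotency genes were higher in 96 h + 2iL. Of 18 tested, 11 rose, none fell and the median change was 1.75. Of these 18, 5 lay higher with no overlap between libraries, beside 3.06% of all genes tested. Tfcp2l1 (chromosome 1, 118627945 to 118685168, GRCm38), a transcription factor downstream of LIF and STAT3, stood at 130, 130, 25.3 and 69.5 CPM in 96 h + 2iL and at 13.8, 6.46, 4.50 and 10.7 CPM at 120 h. All 4 libraries with 2iL lay above all 4 without, and experiment 3 was the lowest on both sides. The change was 3.27 ± 0.32 (adjusted p = 3.75e-08). Klf2 (chromosome 8, 72319033 to 72321656), a Krüppel-like factor stabilised when MEK is inhibited, stood at 228, 192, 25.8 and 115 CPM against 25, 17.9, 12.2 and 9.82 CPM. These groups did not overlap either, although the experiment 3 library with 2iL came within 1 CPM of the highest library without it. Its change was 3.03 ± 0.34 (adjusted p = 4.46e-07).

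Esrrb, a nuclear receptor repressed by TCF7L1 and released when GSK3 is inhibited, had 60.8, 50.7, 7.79 and 24.8 CPM against 5.97, 5.96, 7.66 and 5.36 CPM. Experiment 3 was nearly level, and the change over all 4 was 2.50 ± 0.36 (adjusted p = 3.17e-05). Nr5a2, another nuclear receptor of the network, rose by 3.04 ± 0.43 (adjusted p = 2.00e-05), from 3.98 ± 1.42 to 33.1 ± 22.8 CPM (SD, n = 4). The other naive genes that rose were Zfp42 (2.43), Fbxo15 (2.31), Klf5 (1.75), Tcl1 (1.74), Tbx3 (1.48), Klf4 (1.34) and Nanog (1.20). Nanog, the homeobox factor of the pluripotency core, had 57.4, 54.0, 6.33 and 21.7 CPM against 10.8, 17.4, 13.1 and 17.9 CPM. Its groups overlapped, because the experiment 3 library with 2iL was the lowest of all 8. Its call was lost without either library of experiment 1 or of experiment 2 and without the 120 h library of experiment 4, and in the fit of the 8 libraries alone, with an adjusted p of up to 0.248 over all alternatives. Tbx3 lost its call without either library of experiment 1 or the 120 h library of experiments 2 or 4 and in the fit of the 8 libraries alone (adjusted p up to 0.238), and Klf4 without the 96 h + 2iL library of experiment 2 (0.0809). Dppa3 (2.22, adjusted p = 0.0943), Prdm14 (2.94) and Nr0b1 (1.60) were not called.

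**Figure D1:**
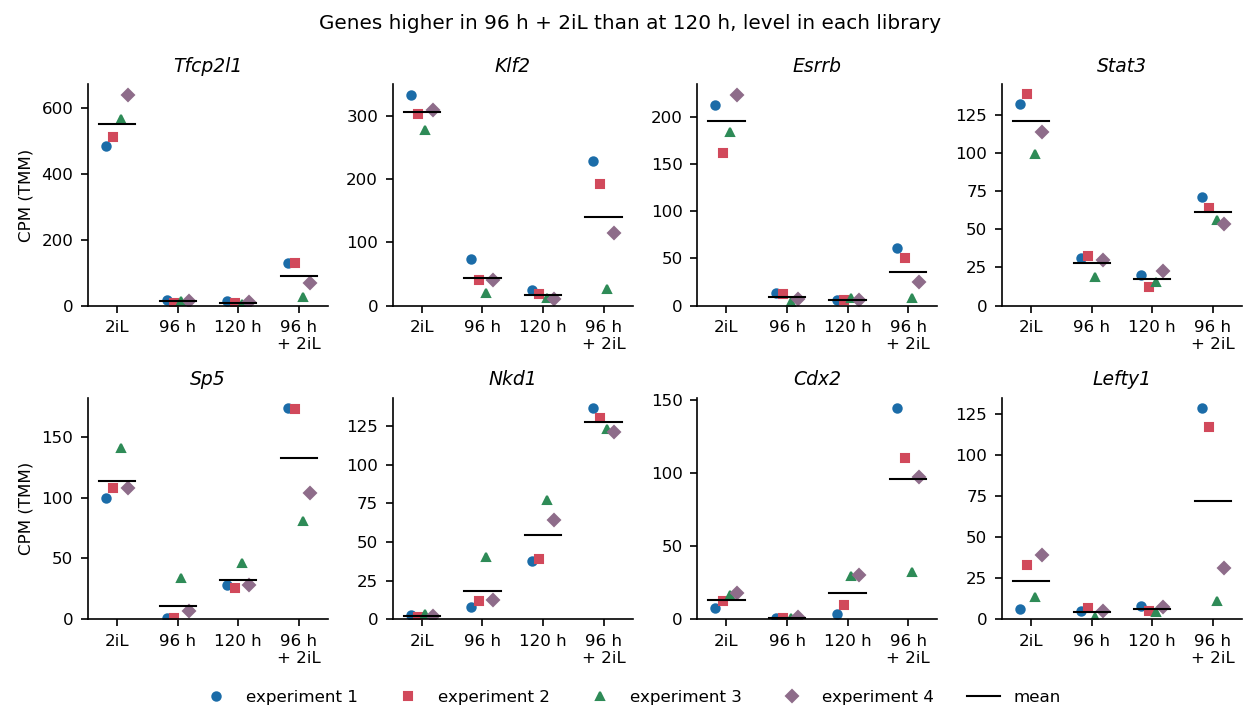
Level of 8 genes in each library (CPM after TMM scaling, linear axis from 0) in 2iL, at 96 h, at 120 h and in 96 h + 2iL. Symbols mark the experiment and bars the mean of 4 libraries. Tfcp2l1, Klf2, Esrrb and Stat3 rose above 120 h but lay below 2iL, while Nkd1 and Cdx2 lay above both.

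The naive level stayed well below that of cells kept in 2iL. Summed over the 18 genes it was 769 ± 428 CPM in 96 h + 2iL, 256 ± 50.8 CPM at 120 h, 431 ± 150 CPM at 96 h and 3688 ± 229 CPM in 2iL (SD, n = 4). Tfcp2l1 averaged 88.7 CPM in 96 h + 2iL and 550 CPM in 2iL, a difference of -2.68 (adjusted p = 1.04e-10). Klf4 averaged 36.8 and 380 CPM (-3.36, adjusted p = 2.76e-13), and Tcl1 7.29 and 176 CPM (-4.64, adjusted p = 1.67e-16). For some of these genes the level also changed between 96 h and 120 h without 2iL. Klf5 fell from 98.2 CPM at 96 h to 43.0 CPM at 120 h (-1.16, adjusted p = 0.0144), and 96 h + 2iL, at 147 CPM, was called against 120 h but not against 96 h (0.59, adjusted p = 0.152). Zfp42 went from 27.3 CPM at 96 h to 7.30 CPM at 120 h (-1.87, adjusted p = 0.00527) and stood at 40.9 CPM in 96 h + 2iL (0.56 against 96 h, adjusted p = 0.280). For Tfcp2l1 the 96 h mean was 12.8 CPM, and the return was called against it too (2.78, adjusted p = 7.74e-08).

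General pluripotency genes did not move as a group, with 2 higher, 1 lower and 10 of 13 not called, and a median of -0.22. Tdgf1, the NODAL co-receptor, rose by 1.83. Sox2 rose by 0.41 ± 0.11 (adjusted p = 0.0294) from 272 ± 52.3 to 362 ± 45.6 CPM, a call lost with scaling by library totals and without any of 5 single libraries (120 h of experiments 1, 2 or 4, 96 h + 2iL of experiments 2 or 4). Utf1, a chromatin factor of epiblast and stem cells, fell by 2.37 ± 0.40 on the log2 scale (adjusted p = 0.000223). Its libraries read 22.3, 21.9, 6.33 and 6.21 CPM against 158, 122, 10.8 and 38.8 CPM, lower with 2iL in every experiment. Pou5f1 showed -0.16 (adjusted p = 0.896). It has close copies in the genome and reads at more than 1 place were not counted, so its level is uncertain.

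Genes linked to LIF and STAT3 rose in 5 of 14 cases and none fell (median 0.72). Stat3 itself (chromosome 11) had 71.2, 63.9, 56.0 and 53.4 CPM against 20.1, 12.4, 15.3 and 22.3 CPM. The groups lay far apart and experiment 3 was no exception here. The change was 1.81 ± 0.21 (adjusted p = 9.77e-07), and the mean in 2iL was 121 CPM. Bcl3, a nuclear IκB protein induced by STAT3, rose by 2.77 ± 0.39 (adjusted p = 2.26e-05), with 24.2, 24.3, 5.35 and 10.6 CPM against 1.35 to 2.98 CPM. Klf4, Spp1 and Tfcp2l1 were the other 3. Spp1 (1.5) lost its call without the 96 h + 2iL library of experiment 1 and in the fit of the 8 libraries alone (adjusted p up to 0.162). Socs3, the feedback inhibitor of the pathway, had a change of 1.11 (adjusted p = 0.0713), and the receptor subunits Lifr (0.48) and Il6st (0.29) were not called.

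WNT and beta-catenin targets rose in 4 of 16 cases and none fell (median 0.87). All libraries with 2iL lay above all without for 8 of the 16, beside 3.06% of all genes tested. Sp5, a zinc-finger repressor that is a direct target, had 174, 173, 81.3 and 104 CPM against 28.4, 25.3, 45.9 and 27.7 CPM. No library overlapped, and experiment 3 had both the lowest value with 2iL and the highest without. The change was 2.17 ± 0.37 (adjusted p = 0.000312). Nkd1, a feedback inhibitor that binds Dishevelled, had 137, 130, 124 and 122 CPM against 37.7, 38.7, 77.0 and 64.3 CPM. The libraries with 2iL were close together, those without were spread, and the change was 1.33 ± 0.25 (adjusted p = 0.000755). Notum, a secreted enzyme that inactivates WNT proteins, went from 0.574 ± 0.564 to 5.31 ± 0.812 CPM (3.21 ± 0.68, adjusted p = 0.0034), a rise among low counts that was 3.86 without the 120 h library of experiment 3.

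Axin2, the most used readout of the pathway, had 66.9, 62.7, 52.1 and 63.3 CPM against 24.2, 32.3, 49.5 and 38.4 CPM. The groups did not overlap, but experiment 3 was nearly level and the change of 0.85 ± 0.25 was not called (adjusted p = 0.0523, and 0.00282 to 0.266 over the alternatives). Lef1 (0.50), Tcf7 (0.89) and Znrf3 (1.01) also had no overlap without a call. The control moved in the same direction on its own: between 96 h and 120 h without 2iL, Axin2 rose from 14.4 to 36.1 CPM (1.40, adjusted p = 0.00263), Nkd1 from 18.1 to 54.4 CPM (1.68, adjusted p = 0.000271) and Sp5 from 10.3 to 31.8 CPM (1.72, adjusted p = 0.0229). Against 2iL, 96 h + 2iL was level for Sp5 (0.31, adjusted p = 0.485) and Axin2 (0.37, adjusted p = 0.235), in the sense that neither was called. Nkd1, by contrast, averaged 2.20 CPM in 2iL and 128 CPM in 96 h + 2iL (5.92, adjusted p = 6.15e-15). Summed over the list, the level was 1227 ± 20.9 CPM in 96 h + 2iL, 770 ± 156 CPM at 120 h and 724 ± 69.9 CPM in 2iL.

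The stretch of 250 bases before the start site of each list's genes was read for short motifs, as RefSeq gives it on GRCm38.p6. Promoters of 1 chromosome and stretches not of full length were left out, and list genes with no stretch left were not counted. The TCF/LEF motif (CTTTGAT or CTTTGAA, either strand) was present in 4 of 14 matched WNT list genes, Dkk1, Sp5, T and Tnfrsf19. It was in 2456 of the 32817 promoters read (7.48%). The STAT motif (TTCNNNGAA, which reads the same on both strands) was in 1 of 16 LIF list genes (Socs3), in 1 of 13 naive genes (Esrrb) and in 7.01% of the promoters read. The ETS motif (CCGGAAG, either strand) was in 0 of 13 ERK list genes and in 6.90% of the promoters read. None of these letter strings contains another. A gene with several listed start sites counted once, as holding the motif if any of its stretches did, while the overall share is per stretch. Tnfrsf19 and Esrrb have 2 listed each, and the one with the match is shown. A match describes these letters and is not a bound site. Printed below, with the match in capitals, are 3 WNT list promoters that hold one beside genes of unlike response, Sp5 called and T and Tnfrsf19 not, and that of Esrrb. Sp5 lies at chr2:70474673-70474922 on the plus strand, T at chr17:8434173-8434422 on the plus strand, Tnfrsf19 at chr14:61037988-61038237 on the minus strand and Esrrb at chr12:86360867-86361116 on the plus strand. The matches begin 104, 235, 202 and 178 bases before the start.
Sp5: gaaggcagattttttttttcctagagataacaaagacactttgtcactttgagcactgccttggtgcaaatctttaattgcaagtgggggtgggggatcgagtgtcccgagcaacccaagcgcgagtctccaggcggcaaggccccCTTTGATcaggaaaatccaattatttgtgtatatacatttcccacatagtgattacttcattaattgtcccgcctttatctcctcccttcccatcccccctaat
T: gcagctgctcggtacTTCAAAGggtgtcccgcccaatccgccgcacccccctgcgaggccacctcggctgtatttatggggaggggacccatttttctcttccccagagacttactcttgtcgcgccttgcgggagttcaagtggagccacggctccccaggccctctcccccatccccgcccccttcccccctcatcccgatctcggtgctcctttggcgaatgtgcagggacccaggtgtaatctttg
Tnfrsf19: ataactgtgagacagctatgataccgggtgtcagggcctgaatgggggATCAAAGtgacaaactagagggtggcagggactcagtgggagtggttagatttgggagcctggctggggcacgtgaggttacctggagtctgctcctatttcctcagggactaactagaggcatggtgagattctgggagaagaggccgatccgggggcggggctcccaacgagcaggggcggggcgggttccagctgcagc
Esrrb: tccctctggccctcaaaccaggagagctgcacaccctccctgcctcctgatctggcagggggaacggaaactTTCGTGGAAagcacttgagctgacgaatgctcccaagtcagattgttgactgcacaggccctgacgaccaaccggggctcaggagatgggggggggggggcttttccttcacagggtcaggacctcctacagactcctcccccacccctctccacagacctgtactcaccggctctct

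In the data, T, the mesoderm factor Brachyury, had 87.3, 117, 3.89 and 13 CPM against 11.2, 12.9, 19.8 and 45.5 CPM. It was higher with 2iL in experiments 1 and 2 and lower in experiments 3 and 4, and was not called (1.35, adjusted p = 0.206). Tnfrsf19, a receptor of the TNF family, had 105, 97.8, 150 and 179 CPM against 53, 85.4, 95.9 and 100 CPM (0.65, adjusted p = 0.123). It was higher with 2iL in every experiment, although the 120 h library of experiment 4 exceeded the lowest library with 2iL.

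Posterior genes rose with the WNT targets in part. Cdx2, a caudal-type homeobox factor of the posterior embryo and the trophoblast, is in both lists. It had 144, 110, 32.1 and 97.5 CPM in 96 h + 2iL and 3.73, 9.44, 29.3 and 29.9 CPM at 120 h. The lowest library with 2iL was again that of experiment 3, just above the highest without. The change was 2.74 ± 0.43 (adjusted p = 8.27e-05), 2.02 without the 96 h + 2iL library of experiment 1 and 3.33 without that of experiment 3. Cdx2 averaged 0.629 CPM at 96 h and 13.4 CPM in 2iL, so that its level in 96 h + 2iL was above all 3 other groups. Hoxb4 had 15.7, 21.9, 5.84 and 26.1 CPM against 0, 0.497, 2.25 and 4.02 CPM, without overlap (3.30 ± 0.72, adjusted p = 0.00475, and 4.07 without the 120 h library of experiment 4). The 9 other genes of the 11 in the Hox, Cdx and Evx list were not called, and the list median was 1.43. Hoxb1 had 11.4, 23.5, 13.6 and 91.9 CPM against 1.12, 7.95, 16.2 and 26.3 CPM (1.43, adjusted p = 0.111). Of 19 streak and mesoderm genes only 10 passed the count filter. Among those 10, Nkx1-2 rose (1.45) and Eomes fell by 2.58, and the median was 0.20, which leaves out the untested genes. Summed over all 19, the level was 69.2 to 313 CPM in 96 h + 2iL and 85.0 to 227 CPM at 120 h. Nkx1-2 lost its call without either library of experiment 1 or 2 or the 120 h library of experiment 3, and with DESeq2 (adjusted p up to 0.318). Eomes lost its call without the 120 h library of experiment 4 (0.100).

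Other genes of signalling pathways rose too. Lefty1 and Lefty2, secreted inhibitors of NODAL, rose by 3.36 ± 0.50 (adjusted p = 5.09e-05) and 2.34 ± 0.52 (adjusted p = 0.00537). Lefty1 had 128, 117, 10.7 and 31.0 CPM against 8.21, 4.97, 4.05 and 7.59 CPM, with all libraries with 2iL higher. With Tdgf1 they made 3 of 10 genes of the NODAL list, whose ligand Nodal was not called (1.17). Lefty2 lost its call without the 96 h + 2iL library of experiment 1 (adjusted p = 0.0708), and Tdgf1 without either library of experiment 1 or the 96 h + 2iL library of experiment 2 (up to 0.0925). Wnt6, a WNT ligand, rose by 3.92 ± 0.69 (adjusted p = 0.000441) with 28, 33.4, 8.27 and 15.5 CPM against 0.746, 0.994, 3.60 and 0.447 CPM, and by 4.78 without the 120 h library of experiment 3. Gli1, a transcriptional target of hedgehog signalling, rose by 2.64 ± 0.47 (adjusted p = 0.000456), from 4.22 ± 3.00 to 28.1 ± 14.8 CPM. Stra6, the cell-surface receptor for retinol-binding protein, had 47.0, 35.5, 27.3 and 48.4 CPM against 2.61, 4.47, 4.95 and 5.80 CPM (3.26 ± 0.53, adjusted p = 0.000228). It was far apart between the groups in each experiment and averaged 0.107 CPM in 2iL. The other 6 genes of the retinoid list were not called.

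The remaining genes with the largest rises were Myh13, Triml1 and Ap3b2. Myh13, a myosin heavy chain, rose by 4.24 ± 0.59 (adjusted p = 1.77e-05), from 0.759 ± 0.189 to 15.4 ± 10.7 CPM, and averaged 65.1 CPM in 2iL. Triml1, a member of the tripartite motif family, rose by 3.92 ± 0.45 (adjusted p = 5.89e-07), or 4.53 without the 120 h library of experiment 1, and averaged 119 CPM in 2iL. Ap3b2, a subunit of the AP-3 adaptor complex, rose by 2.47 ± 0.45 (adjusted p = 0.000755).

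Targets and feedback inhibitors of ERK were lower in 96 h + 2iL. Of 17 tested, 10 fell, none rose, and the median change was -1.20. The same 10 genes had every library with 2iL below every library without, beside 3.68% of all genes tested. Dusp6 (chromosome 10, 99263231 to 99267489), the phosphatase that inactivates ERK, had 3.32, 9.08, 8.27 and 3.72 CPM against 42.9, 49.2, 98.2 and 61.6 CPM. The groups were wide apart in all experiments, experiment 3 included, and the change was -3.30 ± 0.28 (adjusted p = 2.53e-09). Etv4, an ETS factor induced by FGF, had 3.32, 4.54, 8.76 and 3.10 CPM against 47.4, 42.7, 39.2 and 18.3 CPM (-2.88 ± 0.38, adjusted p = 8.01e-06, and -3.50 without the 96 h + 2iL library of experiment 3). Egr1, an immediate early gene, fell by 3.14 ± 0.64 (adjusted p = 0.00241), from 27.3 ± 6.23 to 3.29 ± 1.63 CPM.

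Spry2, a Sprouty inhibitor of receptor signalling, had 34.7, 47.0, 34.1 and 57.7 CPM against 85.4, 75.0, 123 and 116 CPM (-1.20 ± 0.19, adjusted p = 7.51e-05). The phosphatases Dusp4 and Dusp5 fell by 1.97 and 1.76, the ETS factor Etv1 by 1.78, the Sprouty-related Spred3 and Spred1 by 1.32 and 0.76, and the FGF receptor antagonist Il17rd by 0.96. Etv1 lost its call without either library of experiment 2, the 96 h + 2iL library of experiment 1 or the 120 h library of experiment 3 (adjusted p up to 0.0970). Il17rd lost it without either library of experiments 3 or 4 or both of experiment 3, without the 96 h + 2iL library of experiments 1 or 2, and with DESeq2 (up to 0.280). Spred1 lost it without the 96 h + 2iL library of experiment 4 or both libraries of experiment 3 (up to 0.0604), and Spred3 without the 96 h + 2iL library of experiment 1 (0.0716). Etv5 was not called (-0.57, adjusted p = 0.328), and its libraries overlapped at 91.1, 97.4, 13.1 and 50.3 CPM against 77.2 to 115 CPM. The summed level of the list was 287 ± 33.8 CPM in 96 h + 2iL, 643 ± 87.9 CPM at 120 h and 556 ± 103 CPM in 2iL. Members differed in where they stood against 2iL: Dusp6 was not called (-0.68, adjusted p = 0.0938), Etv4 (-3.30, adjusted p = 8.66e-09) was lower in 96 h + 2iL and Dusp4 (2.85, adjusted p = 0.000109) was higher.

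**Figure D2:**
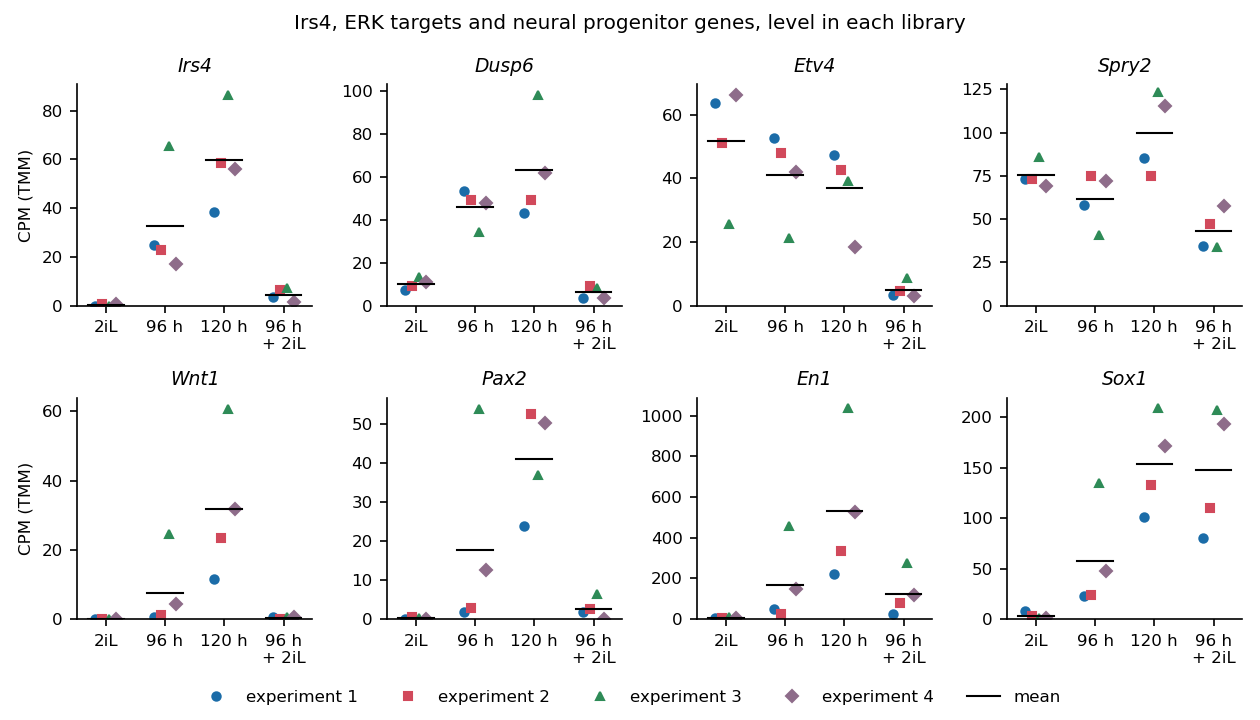
Level of 8 genes in each library (CPM after TMM scaling, linear axis from 0) in 2iL, at 96 h, at 120 h and in 96 h + 2iL, with symbols for the experiment and bars for the mean of 4 libraries. Irs4, Dusp6, Etv4, Spry2, Wnt1 and Pax2 lay lower in every 96 h + 2iL library than in any 120 h library, and Sox1 did not differ by the test.

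Genes of insulin and IGF signalling fell in 4 of 17 cases and none rose (median -0.21). Irs4 (chromosome X, 141710998 to 141725263), an insulin receptor substrate that relays insulin and IGF signals to PI3 kinase, had 3.32, 6.19, 7.30 and 1.24 CPM against 38.4, 58.6, 86.5 and 56.3 CPM. All libraries with 2iL were far below all without, and the change was -3.71 ± 0.33 (adjusted p = 3.29e-09). Irs4 was nearly absent in 2iL, at 0.249 CPM, and stood at 32.5 CPM at 96 h, so that its level fell within 24 h of the return (-2.72 against 96 h, adjusted p = 5.05e-07) while it rose under continued withdrawal (0.99, adjusted p = 0.0247). Irs2 fell by 0.76 ± 0.17 (adjusted p = 0.00566), with 54.6, 54.9, 53.5 and 46.6 CPM against 112, 90.9, 89.6 and 64.3 CPM, a call lost without the 120 h library of experiment 1 (0.0515). Irs1 had no overlap but was not called (-1.22, adjusted p = 0.176). The binding proteins Igfbp2 (-0.94) and Igfbp4 (-0.98) fell, and each lost its call without any of 4 or 5 single libraries (adjusted p up to 0.119 and 0.170). The receptors Igf1r (-0.11) and Insr (-0.04) were not called. Eras, a constitutively active Ras of embryonic stem cells that acts on PI3 kinase, had 1.90, 1.65, 0.487 and 0.621 CPM against 19, 27.8, 4.05 and 8.93 CPM (-3.52 ± 0.55, adjusted p = 9.62e-05).

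Formative and primed epiblast genes fell in 7 of 19 cases and none rose (median -0.64). Fgf5, the ligand that marks the epiblast after implantation, had 0, 0.825, 0.487 and 0.621 CPM against 26.1, 23.8, 1.35 and 12.9 CPM. Its 120 h level was lowest in experiment 3, and the groups did not overlap (-4.80 ± 0.82, adjusted p = 0.000285, from 4 counts against 150 over the 4 libraries). Dnmt3b, a de novo DNA methyltransferase, had 134, 120, 74.0 and 127 CPM against 738, 626, 112 and 363 CPM (-1.96 ± 0.30, adjusted p = 6.95e-05). It was lower with 2iL in each experiment, and its mean of 114 CPM in 96 h + 2iL was not called against the 92.1 CPM of 2iL (0.26, adjusted p = 0.536). The other 8 genes of the DNA methylation list were not called.

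The transcription factor Otx2 had 17.6, 37.5, 224 and 33.5 CPM against 154, 225, 245 and 140 CPM, and Pou3f1 had 14.7, 21.5, 113 and 54.0 CPM against 298, 273, 79.3 and 135 CPM. In experiment 3 Otx2 was nearly level and Pou3f1 was higher with 2iL. Their changes were -1.5 ± 0.32 (adjusted p = 0.00365) and -2.01 ± 0.39 (adjusted p = 0.00135), and -2.61 and -2.82 without the 96 h + 2iL library of experiment 3. The Otx2 call was lost without the experiment term (adjusted p = 0.0704). Sox3, a SoxB1 factor, fell by 1.08 ± 0.18 (adjusted p = 0.00027), with libraries at 46.2 to 89.5 CPM against 102 to 165 CPM. Zic2, a zinc-finger factor, fell by 0.79 (adjusted p = 0.0309). Zic2 lost its call without any of 5 single libraries (either of experiment 1 or 2, or 96 h + 2iL of experiment 4). Etv4 was the seventh.

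Of 19 neural progenitor genes tested, 7 fell and none rose (median -1.12). Wnt1, a ligand of the midbrain-hindbrain boundary, had 0.475, 0, 0.487 and 0.621 CPM against 11.6, 23.3, 60.8 and 31.7 CPM. It was close to absent in all libraries with 2iL: 3 counts against 284 at 120 h, a scaled ratio of 84.7 (exact 95% interval 28.7 to 413, counting error only). The fitted change was -6.27 ± 0.77 (adjusted p = 3.80e-06), and -5.61 without the 96 h + 2iL library of experiment 3. Pax2, a paired-box factor of the same region, had 1.90, 2.48, 6.33 and 0 CPM against 23.9, 52.7, 36.9 and 50.5 CPM (-4.11 ± 0.63, adjusted p = 6.95e-05).

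En1, the homeobox factor Engrailed 1, had 26.6, 77.6, 278 and 117 CPM against 220, 335, 1035 and 528 CPM. The highest library with 2iL exceeded the lowest without, but En1 was lower with 2iL within each experiment (-2.22 ± 0.27, adjusted p = 2.18e-06). En1 averaged 170 CPM at 96 h, rose under continued withdrawal (2.00, adjusted p = 1.97e-05) and was not called between 96 h and 96 h + 2iL (-0.23, adjusted p = 0.662). Six3, a factor of the anterior forebrain and eye field, had 0.949, 0, 1.46 and 1.24 CPM against 19.4, 28.3, 2.70 and 5.36 CPM (-3.92 ± 0.72, adjusted p = 0.000762, and -3.26 without the 120 h library of experiment 2). Sox21 fell by 1.76, En2 by 2.14 and Lhx5 by 2.98. En2 lost its call in 8 of 15 alternatives (adjusted p up to 0.305): DESeq2, the fit without the experiment term, both libraries of experiment 3 left out, and 5 single libraries (either of experiment 4, 96 h + 2iL of experiments 1 or 2, 120 h of experiment 3). Lhx5 lost it without either library of experiment 1 or 2, without the 96 h + 2iL library of experiment 3 and without the experiment term (up to 0.116), and Sox21 without the experiment term (0.235).

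Outside that list, Lmx1b, a LIM homeobox factor of midbrain and roof plate, had 0.949, 2.89, 1.95 and 3.72 CPM against 21.6, 21.9, 22.5 and 31.3 CPM (-3.37 ± 0.48, adjusted p = 2.26e-05). The 96 h mean was 28.6 CPM. Wnt7b and Wnt8b, WNT ligands of the early brain, fell by 3.88 ± 0.64 (adjusted p = 0.000236) and 3.93 ± 0.98 (adjusted p = 0.0159). The Wnt8b call was lost with DESeq2, without the experiment term, and without either library of experiment 2 or the 96 h + 2iL library of experiment 3 (up to 0.235). The remaining genes with the largest falls were Lgi1 (-3.26), a secreted neuronal protein, Enpp3 (-3.10), an ectonucleotide phosphodiesterase, and Fam57b (-3.03). Lgi1 lost its call without the 96 h + 2iL library or both libraries of experiment 3 (adjusted p up to 0.0993), Enpp3 was -3.92 without that library, and Fam57b was -3.64 without the 96 h + 2iL library of experiment 1.

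The 12 other progenitor genes were not called. Sox1, the SoxB1 factor that marks neural commitment, had 80.7, 110, 207 and 193 CPM against 101, 133, 208 and 171 CPM. The groups overlapped almost fully, and the change was -0.09 ± 0.31 (adjusted p = 0.933). The changes of the other 11 were -1.31 for Fabp7, -1.20 for Nr2f1, -1.12 for Irx3, -0.45 for Msi1, -0.33 for Pax6, -0.19 for Hes5, -0.18 for Nes, -0.08 for Zic1, 0.10 for Nr2f2, 0.57 for Pou3f2 and 0.87 for Pax3. The sign of Sox1, Zic1 and Hes5 reversed in 1, 2 and 4 of 15 alternatives, so no direction is given for them. Sox1 averaged 57.2 CPM at 96 h and was higher both in 96 h + 2iL (1.49, adjusted p = 0.00227) and at 120 h (1.58, adjusted p = 0.00415). Zic1 averaged 2.07 CPM at 96 h and was likewise higher in 96 h + 2iL (3.8, adjusted p = 3.40e-06) and at 120 h (3.87, adjusted p = 1.69e-05). Of 13 neuron genes edgeR and DESeq2 called none (median -0.46), Tubb3 among them (0.19, adjusted p = 0.781, with a reversed sign in 2 alternatives). At an unadjusted p under 0.05 there were 2 higher and 5 lower. The count of 0 did not hold in 8 of 15 alternatives, with 2 higher and 3 lower without a filter on counts, 2 and 1 in the fit of the 8 libraries alone, and 1 and 3 without experiment 3. It was 0 and 2 without the 120 h library of experiment 3, and 1 and 0 without either library of experiment 1, the 120 h library of experiment 2 or the 96 h + 2iL library of experiment 3.

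**Figure D3:**
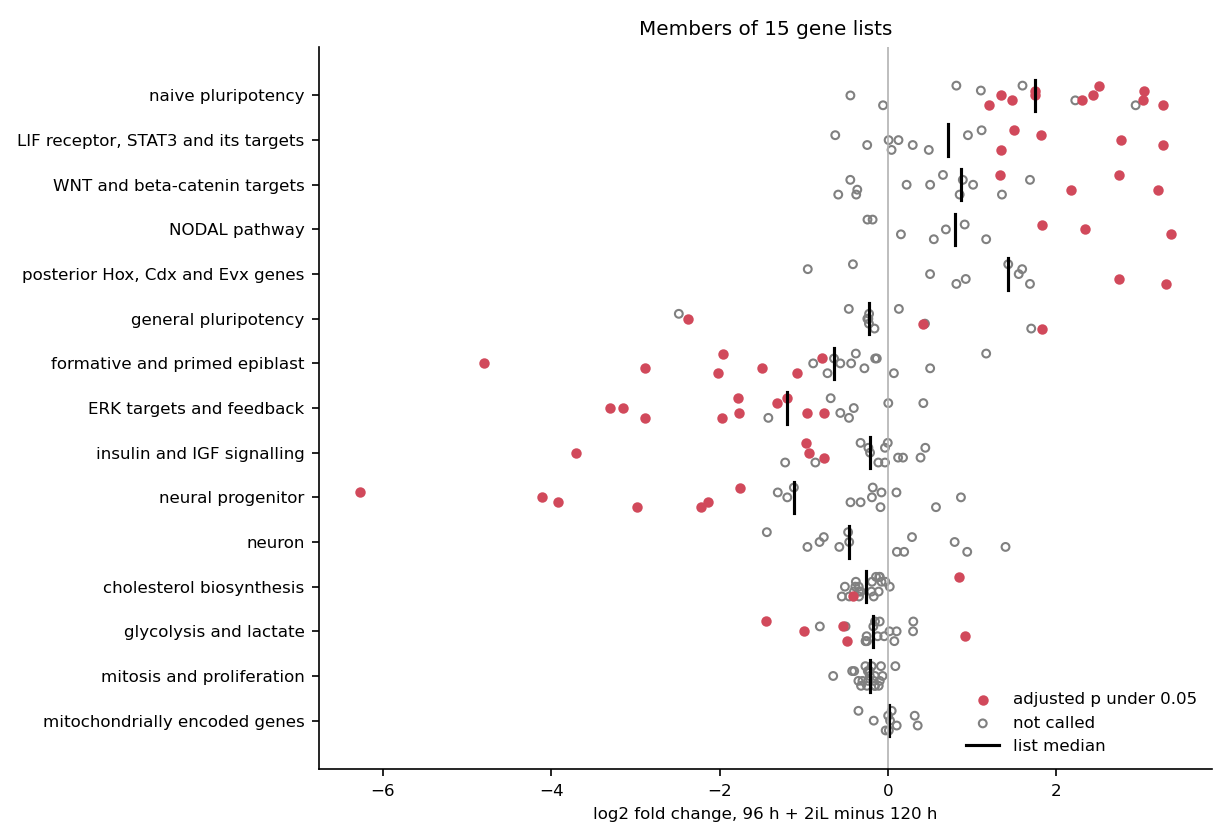
Log2 fold change of each tested member of 15 lists, 96 h + 2iL minus 120 h (horizontal axis), with filled points for called genes, open points for the rest and black bars for list medians. Called naive and WNT genes lie to the right of 0, called ERK and neural progenitor genes to the left, and the neuron, mitosis and mitochondrial lists hold no called gene in the fit plotted.

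In glycolysis and lactate 4 of 21 genes fell and 1 rose (median -0.17), beside 1.98% and 1.75% of all genes tested. Slc16a3, which exports lactate, fell by 1.45 ± 0.22 (adjusted p = 4.84e-05), from 173 ± 57.8 to 63.5 ± 10 CPM. Slc2a1, the glucose transporter GLUT1, had 124 to 210 CPM against 267 to 342 CPM (-1.0 ± 0.13, adjusted p = 7.69e-06), without overlap. Tpi1 (-0.54) and the lactate dehydrogenase Ldha (-0.49) also fell, and its sister Ldhb rose (0.91). Ldha lost its call without any of 5 single libraries (either of experiment 2, 120 h of experiments 1 or 3, 96 h + 2iL of experiment 4) and without both libraries of experiment 3. Ldhb lost its call without any of 4 (96 h + 2iL of experiments 1 or 2, 120 h of experiments 3 or 4). Cholesterol synthesis had 1 gene called higher and 1 lower of 22, while 20 of the 22 had a change below 0 (median -0.26).

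No mitosis gene of 22 was called by edgeR, 6 were lower at an unadjusted p under 0.05, and 21 of them had a change below 0, from -0.65 for Aurkb to -0.07 for Birc5 (median -0.22). DESeq2, scaling by library totals and leaving out the 96 h + 2iL library of experiment 3 each called 2 lower, and the fit of the 8 libraries alone 1. Cdkn1a, the cyclin-dependent kinase inhibitor p21, had 865, 967, 440 and 534 CPM against 308, 231, 228 and 237 CPM. The groups did not overlap, the change was 1.46 ± 0.18 (adjusted p = 2.18e-06), and the 2iL mean was 808 CPM. The other 14 p53 targets tested were not called. Among 16 imprinted genes 4 fell and 1 rose (median -0.05). Mest, expressed from the paternal allele, fell by 1.70 ± 0.34 (adjusted p = 0.00182), with 52.7, 45.8, 111 and 55.9 CPM against 162, 205, 337 and 159 CPM. Snrpn fell by 1.19 ± 0.23 (adjusted p = 0.00168).

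Some markers of other cell types differed. Of 6 trophoblast genes tested, Cdx2 and Tfap2c (2.12, adjusted p = 0.00497) rose and Eomes fell. Summed over all 13 trophoblast list genes, tested or not, the level was 54.2 to 266 CPM in 96 h + 2iL and 55.5 to 94.6 CPM at 120 h. Of 3 glial genes tested, Mbp, a myelin protein, rose. It had 45.6, 65.2, 74.9 and 139 CPM against 33.6, 29.3, 38.7 and 30.8 CPM, without overlap (1.21 ± 0.27, adjusted p = 0.00615). The level summed over all 8 glial list genes, tested or not, was 75.6 to 177 CPM against 60.3 to 74.6 CPM. Tfap2c lost its call without the 96 h + 2iL library of experiment 2 (adjusted p = 0.0571), and Mbp without either library of experiment 4 (up to 0.0797). The part of these markers in the other results was not tested. Over the 4 libraries of each group, the endoderm factors Gata4, Gata6 and Sox17 had 4, 2 and 2 counts in 96 h + 2iL and 2, 6 and 1 at 120 h. The trophoblast factors Elf5, Gata3 and Hand1 had 0, 6 and 1 counts against 1, 13 and 2. The crest factors Sox10 and Pax7 had 0 and 37 counts against 0 and 114. The glial genes Gfap, Aqp4 and S100b had 2, 0 and 5 counts against 2, 8 and 6. All of these were under the count filter and were not tested. Zscan4c and Zscan4d, of the two-cell-like state, had 0. No gene of the endoderm, feeder, germline or two-cell-like lists was called by edgeR or DESeq2. At an unadjusted p under 0.05 there were 1 of 7, 0 of 8, 1 of 6 and 1 of 1 tested. A germline gene was called higher in 5 of 15 alternatives, and none of the other 3 lists had a call in any. Of 7 crest genes tested, Msx1 (1.93) and Ngfr (1.84) rose and Sox9 fell by 2.28. Summed over all 12 crest list genes, tested or not, the level was 49.1 to 85.7 CPM in 96 h + 2iL and 80.9 to 110 CPM at 120 h. Ngfr lost its call without either library of experiment 2 or the 120 h library of experiment 1 (adjusted p up to 0.212), and its change was 2.49 without the 120 h library of experiment 4.

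The 4 experiments differed in size. Within experiments, the median log2(CPM + 1) difference of the 18 naive genes was 2.05, 1.95, 0.055 and 1.42, with 17, 16, 12 and 16 of them higher with 2iL. For WNT targets it was 1.19, 0.80, 0.24 and 0.77. Both were smallest in experiment 3, as was the neural progenitor difference, at -1.39, -1.64, -0.011 and -0.76. ERK targets did not follow that order, with -1.28, -0.66, -1.16 and -0.99. Posterior genes had 2.33, 2.34, 0.014 and 0.46, and streak and mesoderm genes 1.32, 0.79, -1.04 and -1.06. For streak and mesoderm genes experiments 3 and 4 thus had the opposite sign to experiments 1 and 2. The same split held for neuron genes, at -0.62, -0.84, 0.15 and 0.22. The same medians over all genes tested were within 0.01 of 0. The summed naive and neural levels of experiment 3 given above moved with these differences. Experiment 3 also stood apart at 96 h, before 2iL returned. Its summed naive level there was 232 CPM, against 430 to 595 CPM in the other experiments. Its summed neural progenitor level was 1347 CPM, against 236 to 481 CPM. The part of these levels in the differences was not tested.

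**Figure D4:**
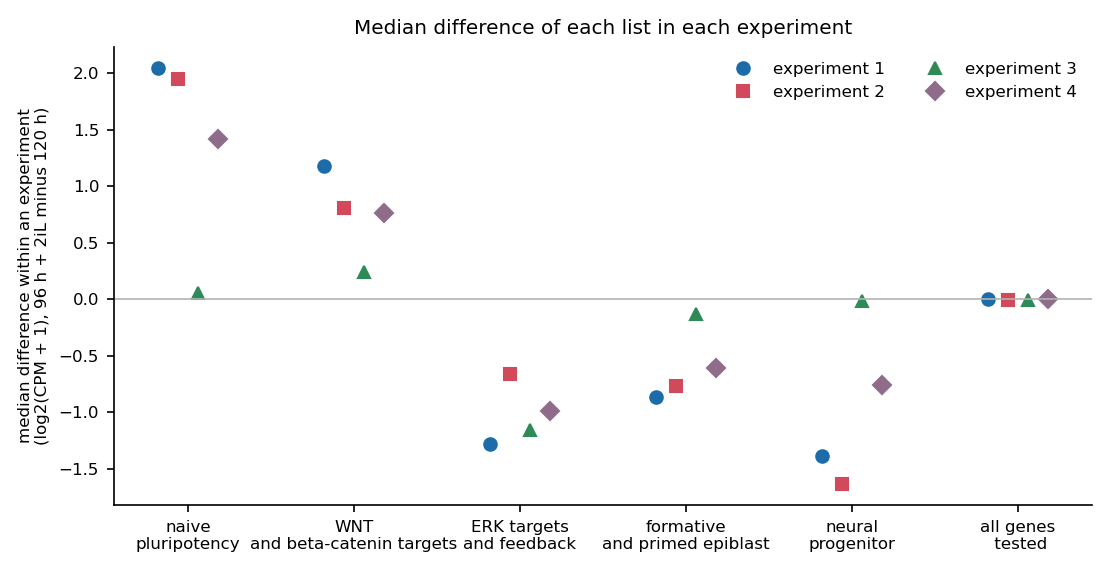
Median difference in log2(CPM + 1), 96 h + 2iL minus 120 h, within each experiment (vertical axis), for 5 lists and for all genes tested, with 1 symbol per experiment. Experiment 3 (triangles) lies near 0 for the naive and neural progenitor lists, at 0.055 and -0.011, but at -1.16 for ERK targets.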

How the data were processed

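Polyadenylated RNA of E14 cells was profiled by 3′ digital gene expression, per the labels. The authors deposited raw counts per gene for 31053 genes in each library, and a table of CPM for the series, which in 28 of 28 columns equalled CPM recomputed from the counts within a tolerance of 1e-06. The submitters' processing notes name bcl2fastq, STAR 2.6.0a, HTSeq and the mm10 build, without roles. The file names call the counts unique, and whether that means positions or molecular identifiers is not stated. Alignments at more than 1 place were 52.3% to 60.1% of the listed reads and were not counted, so genes with close copies are undercounted. Reads in no feature were 6.68% to 8.58%. These rows stayed out of library sizes and tests.

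The filter was filterByExpr by group, with a minimum count of 10 and a minimum total of 15, and 11080 genes passed. Counts were scaled by TMM and fitted with edgeR 4.0.16 (limma 3.58.1, R 4.3.3) in 1 quasi-likelihood model of all 28 libraries with group and experiment terms. P-values are two-sided and Benjamini-Hochberg adjusted over the 11080 genes. Standard errors were taken from the change and its F statistic and are approximate for low counts. Differences within an experiment used a pseudocount of 1 CPM. The exact permutation test used scipy in Python and was unpaired, so it took no account of the experiment number. Positions are from GENCODE M21 on GRCm38, and promoters from RefSeq on GRCm38.p6. The model was also run on simulated counts, whose outcome is not given here. Their experiment effects were the same in every group, so that run cannot speak to effects that differ between groups.

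The rule for named genes took the 14 largest rises and 14 largest falls among called genes with a mean of at least 10 CPM in the higher group and no overlap between libraries, passing over Gm, mt-, Rik and ribosomal symbols and pseudogenes. For those genes the lack of overlap was a condition of being named. Any member of the 38 lists (598 genes) could be named beside them. The comparison, its markers (Tfcp2l1, Klf2 and Irs4) and the lists were chosen with earlier results of these data known. The p-values of those markers are therefore not independent of that choice. The experiment term comes from the numbers in the titles. Deviations of same-numbered libraries of both groups from their group means correlated at 0.33, 0.15, 0.42 and 0.071 for experiments 1 to 4. For 2 of them a library of another number correlated more highly. The 96 h + 2iL library of experiment 2 reached 0.22 with the 120 h library of experiment 1. That of experiment 4 reached 0.11 with the 120 h library of experiment 3. No replicate pair was identical. Alternatives were RLE scaling, library totals, no filter, DESeq2 1.42.0, no experiment term, only the 8 libraries, and each library left out. Leaving out both libraries of experiment 3 was added after seeing the data.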

Additional observations from a re-analysis of the deposited data

Results flagged for a closer look

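The 103 genes put through the alternatives below were examined for a library apart. In 13 of their 206 groups of 4 libraries, 1 library lay apart from the other 3 by Dixon's criterion, which chance meets in about 1 of 20 groups. In 7 of the 13 it was a library of experiment 3. In 96 h + 2iL these were En2 at 18.01 CPM (others 1.65 to 3.72), Mest at 112 (45.8 to 55.9), Otx2 at 224 (17.6 to 37.5) and Wnt7b at 6.81 (0.621 to 1.42). At 120 h they were Msx1 at 12.2 CPM (4.97 to 5.80), Sp5 at 45.9 (25.3 to 28.4) and Zic1 at 67.1 (11.6 to 20.1). Each of these 7 libraries was the highest of its group.

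In experiment 4, Hoxb1 stood at 91.9 CPM (11.4 to 23.5) and Irs2 at 46.6 CPM (53.5 to 54.9) in 96 h + 2iL, and Lmx1b at 31.3 CPM (21.6 to 22.5) at 120 h. In experiment 1, Cdkn1a stood at 308 CPM (228 to 237) and Klf4 at 19.8 CPM (12.2 to 12.9) at 120 h. In experiment 2, Ngfr stood at 18.6 CPM (5.59 to 7.60) in 96 h + 2iL. No cause was tested for any of them.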

How the results depend on the processing

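The number of genes changed between 96 h + 2iL and 120 h was 621 with no filter on counts (309 higher), 232 to 548 with 1 library left out (97 to 311 higher, 125 to 260 lower), 405 with RLE scaling, 413 with library totals, 414 with DESeq2, 535 in the fit of the 8 libraries alone and 506 without experiment 3. DESeq2 shared 382 calls with the 413, and library totals 372. Without the replicate block it was 291, all among the 413. For 120 h minus 96 h it was 126 without the replicate block, 953 in the fit of 8 libraries alone and 198 to 790 with 1 library left out. Of 103 genes put through the alternatives one by one, 84 were called, and none of those with a value changed sign (75 had one in the fit of 8 libraries alone). This set holds some genes not named above, such as Bcl2, and lacks some that are, such as Tpi1. Of the 84, 13 lost their call without the replicate block, namely the genes listed for it above with Id2 and Vim. Signs reversed for uncalled genes. Hes5 was 0.28 without the replicate block, -0.63 to 0.079 with 1 library or both of experiment 3 left out. With 1 library left out, Pou5f1 ranged from -0.51 to 0.22, Sox1 from -0.29 to 0.044, Tubb3 from -0.25 to 0.38 (-0.16 without experiment 3) and Zic1 from -0.46 to 0.25. The causes were not tested beyond the fewer samples or the larger number of genes. Depth limits genes under about 10 counts a group, such as Wnt1 and Fgf5 with 2iL.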
